A study of Mus musculus with 12 samples.

Results

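The genes described here encode the proteins of the cytosolic ribosome. They were chosen by symbol alone, as Rps or Rpl followed by a number, an optional letter (a, x, y or l) and optional further digits, or Rpsa, Rplp0, Rplp1 and Rplp2, leaving out names that carry -ps, the ending for pseudogenes. That took 83 of the 32285 genes in the count tables, 32 for the small subunit (40S, the Rps names and Rpsa) and 51 for the large subunit (60S, the Rpl and Rplp names). CD8 T cells came from NOD/ShiLtJ (NOD) mice, an inbred strain that develops autoimmune diabetes on its own, and were stained with an H-2Kd tetramer loaded with NRP-V7, a mimotope of the β cell protein IGRP. The 3 sorted groups were tetramer-positive cells from pancreatic islets (islet IGRP+), tetramer-negative cells from the same islets (islet IGRP–) and tetramer-positive cells from the spleen (spleen IGRP+). Each group was sorted in 2 rounds, each from 10 pooled female mice aged 10 to 15 wk, and gave a 5′ gene expression library and a T-cell receptor library per round. A library therefore stands for a pool and not for a mouse, and the 3 libraries of a round share their pool. Islets were digested and picked by hand whereas spleen cells passed a bead-based CD8 selection, so tissue and preparation cannot be told apart. The spleen cells are also described in the study as sorted for CD44, a surface marker of activated and memory cells, although CD44 is listed in the protocol as a stain and not as a gate. The rounds also differed in sequencing run and read length. Values given as a pair are Round 1 and Round 2 in that order.

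A cytosolic ribosome holds a single copy of nearly every one of these proteins, so their genes are transcribed in every growing cell and their mRNAs are among the most abundant ones. These mRNAs start with a run of pyrimidines, the 5′ terminal oligopyrimidine (TOP) motif, through which mTORC1 signalling controls their translation. Naive T cells are known for a large share of ribosomal protein transcripts in single-cell libraries, and antigen activation is known to raise ribosome production along with cell growth.

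Of 26818 cell barcodes, 24117 (89.9%) had under 5% mitochondrial UMIs and 200 to 3500 detected genes in islet libraries, or 200 to 2000 in spleen libraries. The kept cells numbered 6429 and 8932 in islet IGRP–, 1204 and 1598 in islet IGRP+ and 3524 and 2430 in spleen IGRP+. A UMI, or unique molecular identifier, stands for 1 captured transcript. Library totals ran from 5880696 to 40469961 UMIs, with medians per cell of 3793 and 3869 in islet IGRP–, 3800.0 and 4216.5 in islet IGRP+ and 2590.0 and 2764.5 in spleen IGRP+. The spleen libraries were thus the shallowest per cell in both rounds. Pairs of libraries shared 5 to 77 barcodes, at most 1.38% of the smaller library, and 317 barcodes occurred in more than 1 library. The 7 CD8 T-cell markers, among them Cd3e, Cd8a and Trac, were all detected in each library at a summed 4710.1 to 6261 CPM, which are UMIs scaled to equal library totals. The study sorted cells negative for the lineage markers CD4, B220 and CD11b. Transcript markers of other cells were low. Cd4 and Foxp3 together stayed at or under 1.38 CPM, with Cd4 at 0 in 3 libraries, and the B-cell markers at or under 11.4 CPM, nearly all of it Cd79b. Exocrine markers summed to 113 and 380.4 CPM in islet IGRP–, led by Ctrb1, against 34.3 and 140.2 in islet IGRP+ and 2.91 and 2.03 in spleen IGRP+, where only Prss2 of the 9 markers was found. Endocrine markers reached at most 21.9 CPM and were at 0 in the spleen. Myeloid markers summed to 166 to 225 CPM in the 6 libraries, mostly Cst3. The part of these markers in the results below was not tested, beyond leaving out cells with over 1% of their UMIs from them, which changed no count of members called between groups. NK-cell and red-cell markers reached no more than 1.01 CPM.

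The members took 28036195 of 100000541 UMIs, and all but 1 had at least 1 UMI. Of the 83 members, 80 passed the filter on low counts, 32 of the 40S and 48 of the 60S subunit, so counts and medians below cover those 80. The other 3 are paralogs named for a restricted pattern in other organs. Rpl10l and Rpl39l, best known from testis, had 0 and 40 UMIs, and Rpl3l, best known from heart and skeletal muscle, had 5. Among features with near-identical names that the rule left out were Rpl36al, Rps27rt and 5 with -ps in their names. All 83 members had a position in the annotation, on 19 chromosomes, with 14 of them on chromosome 7 and 4 (Rpl10, Rpl36a, Rpl39 and Rps4x) on the X chromosome.

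Members made up a smaller share of all UMIs in islet IGRP+ cells than in islet IGRP– cells in both rounds, and the spleen IGRP+ share lay between them. The share was 32.4 and 26.1% in islet IGRP–, 29.6 and 21.9% in islet IGRP+ and 30.4 and 23.6% in spleen IGRP+. Each value has a 95% Wilson interval at most 0.0738 percentage points wide, which covers counting error only. Every Round 2 library lay below every Round 1 library, so the groups overlapped across rounds while their order was the same within each. The SD between rounds was 4.41, 5.44 and 4.85 points (n = 2 per group). Within a round, islet IGRP+ minus islet IGRP– was -2.79 and -4.24 points, and spleen IGRP+ minus islet IGRP+ was 0.845 and 1.68. Both differences share the islet IGRP+ libraries. Their means, -3.51 and 1.26 points, are larger than the SD of the within-round differences, 1.02 and 0.588 (n = 2 rounds), and smaller than the SD between rounds within a group. Cells over the mitochondrial limit, which were left out, had shares from 9.97 to 25.3%, in each library below the share of the kept cells. In the median kept cell the share was 32.4 and 26.5% in islet IGRP–, 28.3 and 20.7% in islet IGRP+ and 28.0 and 21.7% in spleen IGRP+, where it no longer lay between the islet groups in Round 1. The mean difference between the islet groups depended on which cells were counted. It was -6.61 points among cells with 2000 to 4000 UMIs, and over clones of 2 or more cells, a setting chosen after seeing the data, it turned to 1.02 and that of spleen IGRP+ minus islet IGRP+ to -1.20. Mitochondrial genes made up 2.87 and 1.85% of UMIs in islet IGRP–, 1.96 and 1.26% in islet IGRP+ and 2.39 and 1.48% in spleen IGRP+. Their share thus had the same order of groups as the member share in both rounds and was lower in Round 2 in each group, and whether 1 cause moved both was not tested.

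The subunits did not divide alike. The 40S members held 14.6 and 12.9% of UMIs in islet IGRP–, 13.2 and 10.5% in islet IGRP+ and 14.4 and 11.9% in spleen IGRP+. The 60S members held 17.7 and 13.3% in islet IGRP–, 16.4 and 11.4% in islet IGRP+ and 16.0 and 11.7% in spleen IGRP+. From islet IGRP+ to spleen IGRP+ the 40S share was higher by 1.22 and 1.35 points, whereas the 60S share differed by -0.378 and 0.326 points, with opposite signs in the 2 rounds. By edgeR the median log2 fold change there was -0.024 for 40S and -0.11 for 60S members, against 0.032 over all genes. The higher 40S sum therefore does not stand for the 40S members as a set. The ratio of 60S to 40S UMIs was lowest in spleen IGRP+ in both rounds, at 1.11 and 0.984, against 1.21 and 1.03 in islet IGRP– and 1.25 and 1.08 in islet IGRP+. No test was made of these sums.

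**Figure D1:**
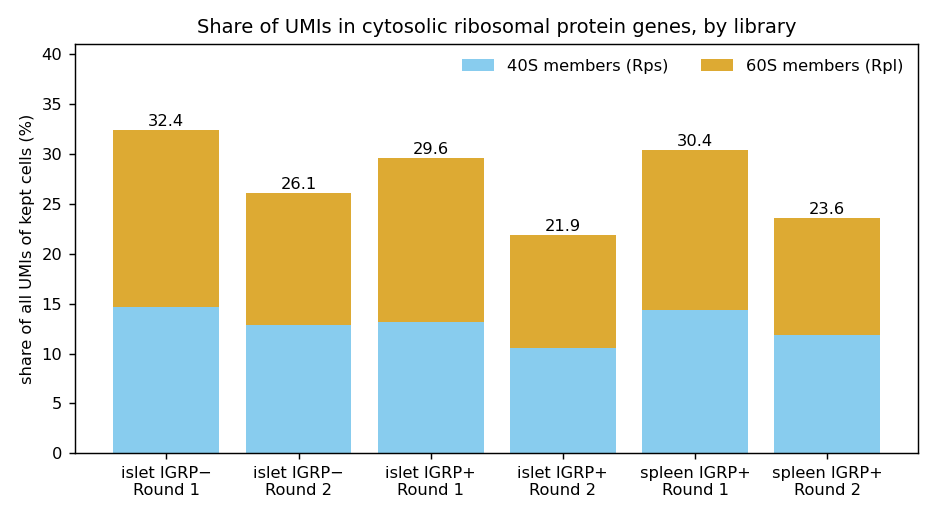
Stacked bars give the percent of all UMIs of kept cells that came from 40S and 60S members in each of the 6 libraries, with the total printed above each bar. The 3 Round 1 totals, 29.6 to 32.4%, lie above the 3 Round 2 totals, 21.9 to 26.1%.

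A small set of members held part of the gap between rounds. In all 3 groups 9 members differed over 2-fold between rounds, 8 of them lower in Round 2. They were picked out after their values were seen. Rpl41, which encodes a very short basic peptide of the ribosome, had 8551 and 840.1 CPM in islet IGRP–, 9767 and 1072 in islet IGRP+ and 6878 and 668 in spleen IGRP+. Rpl29 had 1905 and 237 CPM in islet IGRP–, 1989 and 271 in islet IGRP+ and 1679.7 and 240.2 in spleen IGRP+. Rpl10, which joins the 60S subunit late and is mutated in some T-cell leukemias, had 2986 and 514 CPM in islet IGRP–, 2988 and 415 in islet IGRP+ and 2525 and 339.6 in spleen IGRP+. In each group the difference of these 3 between rounds was far larger than any difference between groups. Rpl9, Rpl35a, Rpl17, Rpl21 and Rps13 were the other 5 with lower values in Round 2, with log2 ratios of Round 2 over Round 1 from -2.83 to -1.15. Rps18 went the other way, from 190.1 to 1910.5 CPM in islet IGRP–, from 317 to 1853 in islet IGRP+ and from 175 to 2605 in spleen IGRP+. Together these 9 members held 3.54 and 1.00% of UMIs in islet IGRP–, 3.38 and 0.978% in islet IGRP+ and 3.15 and 1.02% in spleen IGRP+. Without them the member share was 28.8 and 25.1% in islet IGRP–, 26.2 and 20.9% in islet IGRP+ and 27.3 and 22.5% in spleen IGRP+, so a gap between rounds was still there and the order of groups was the same. Of the 80 members tested, 60 had lower CPM in Round 2 in all 3 groups and 1, Rps18, had higher CPM in all 3. The same counts between rounds over all genes are not given here, so these counts do not set the members apart from other genes. The 5 -ps features together held 0.00183 and 0.563% of UMIs in islet IGRP–, 0.00255 and 0.485% in islet IGRP+ and 0.00136 and 0.467% in spleen IGRP+, thus higher in Round 2. Reads of members that have near-identical copies elsewhere in the genome are uncertain in such counts, and the parts of read length, sequencing run and pool of mice in the gap between rounds cannot be told apart.

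**Figure D2:**
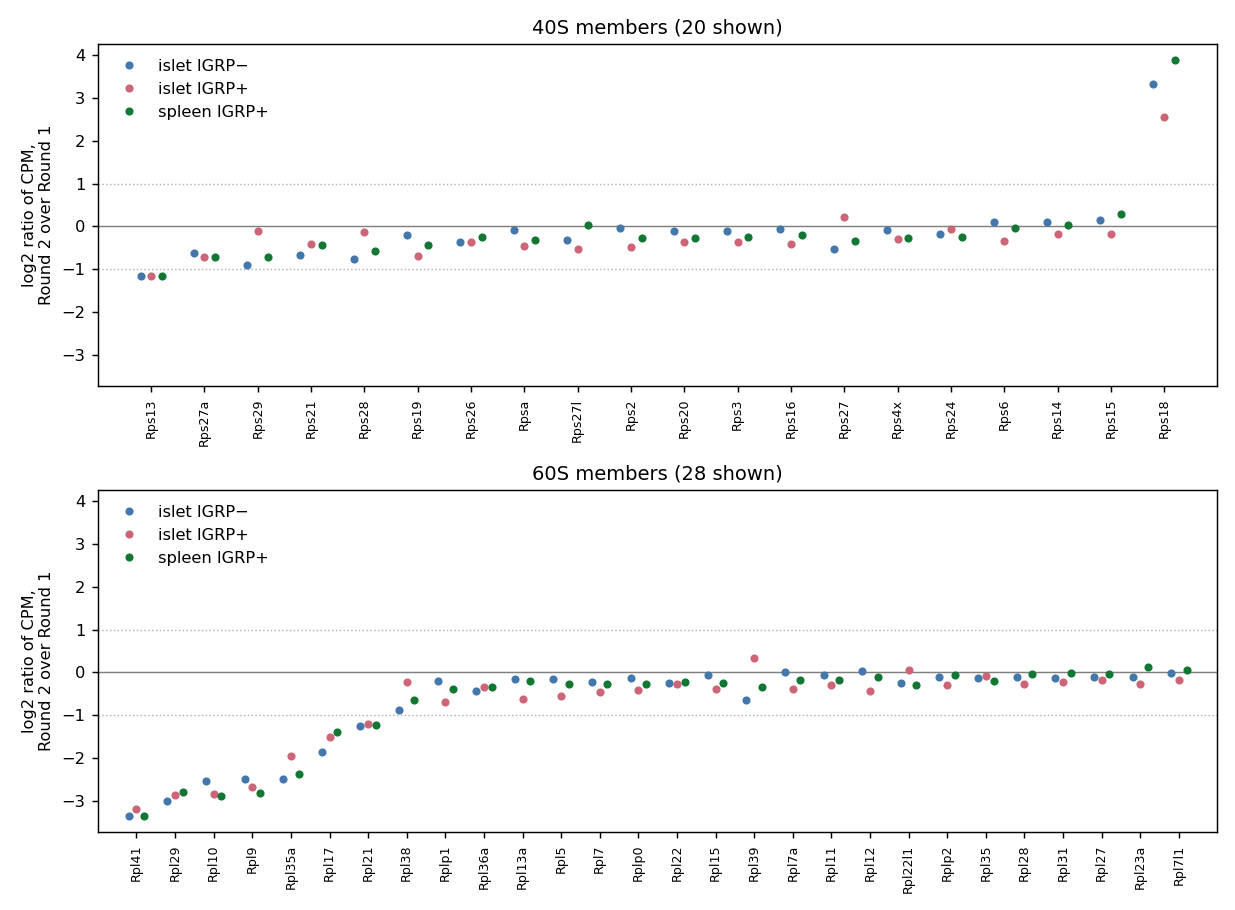
Points give the log2 ratio of CPM in Round 2 over Round 1 for the tested members that the text names in the 3 groups, 40S members above and 60S members below, with dotted lines at a 2-fold difference. Rpl41 lies lowest, from -3.36 to -3.19, and Rps18 highest, from 2.55 to 3.90.

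The comparison of islet IGRP+ with islet IGRP– cells asks how cells of this specificity differ from the other CD8 T cells of the same islets. No member passed edgeR's quasi-likelihood test at an adjusted p under 0.05, against 1.19% of the 11277 genes tested, and 0 members had an unadjusted p under 0.05. DESeq2 called 0 of 80 as well, beside 5.09% of all genes, with 1 higher and 2 lower at an unadjusted p under 0.05. The median log2 fold change of the 80 members was -0.17, against -0.014 over all genes, and 64 of 80 had a negative value. Taken round by round on CPM, 52 of 80 were lower in islet IGRP+ in both rounds and 7 were higher in both. The same counts of signs over all genes are not given here. With the round as a replicate block, 1 member rose and 11 fell, beside 14.4% and 16.1% of all genes, a share of members no larger than that of all genes. The members that passed with the block are all named below, those outside the rule for named genes after their values were seen. The median without islet IGRP– Round 1 was 0.0031 and without islet IGRP+ Round 2 0.10, but a fit that lacks 1 library compares unequal rounds. Within the rounds the medians were -0.089 and -0.25, on CPM without the TMM normalization of the fits. With the block the median was -0.19.

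Among 40S members, Rps27 and its paralog Rps27l moved apart. Rps27 encodes a zinc finger protein of the small subunit, and Rps27l, a close copy, is a known target of p53. Rps27 had 6684 and 4606 CPM in islet IGRP– and 3528 and 4114 in islet IGRP+, with no overlap between groups. Its log2 fold change with the block was -0.54 ± 0.17 (SE), adjusted p = 0.0299. Rps27l had 159.8 and 129 CPM in islet IGRP– and 264 and 183 in islet IGRP+, again with no overlap, and it rose with the block by 0.62 ± 0.13 (SE), adjusted p = 0.00346. Without the block their adjusted p values were 0.439 and 0.328. Rps19, the gene most often mutated in Diamond-Blackfan anemia, had 4627 and 4022 CPM in islet IGRP– and 3815 and 2374 in islet IGRP+ and fell with the block by 0.52 (adjusted p = 0.0237). Rps14, whose loss is tied to the anemia of 5q– syndrome, fell by 0.49 (adjusted p = 0.0221) from 4102 and 4437 to 3235 and 2871 CPM. Rps24, Rps16 and Rps15 also fell with the block, by 0.48, 0.46 and 0.40. Rps26, at the mRNA exit of the small subunit, had 5021 and 3913 CPM in islet IGRP– and 5563 and 4339 in islet IGRP+, higher in islet IGRP+ within each round but not called (0.16, adjusted p = 0.858).

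Of the 60S members, Rpl13a, a subunit known for silencing of inflammatory mRNAs after interferon-γ, had the lowest fold change. It had 3666 and 3264 CPM in islet IGRP– and 2425 and 1584 in islet IGRP+, and the groups did not overlap. With the block its log2 fold change was -0.82 ± 0.15 (SE), adjusted p = 0.00174, and without it -0.77 ± 0.38 (SE), adjusted p = 0.345. Rpl5, which carries 5S rRNA and binds Mdm2, went from 1313 and 1175 to 889 and 607 CPM and fell with the block by 0.76 (adjusted p = 0.00159). Its partner in that particle, Rpl11, had 3971 and 3800.1 CPM in islet IGRP– and 4271 and 3504 in islet IGRP+ and a fold change of -0.010 with the block, which did not pass. Rpl12, at the base of the stalk, went from 2487 and 2556 to 1762 and 1299.7 CPM and fell by 0.74 with the block (adjusted p = 0.00315). Of the stalk proteins, which recruit the GTPases of translation, Rplp1 fell by 0.58 with the block (adjusted p = 0.0150), from 6667 and 5775 to 5263 and 3266 CPM. The other stalk genes, Rplp0 and Rplp2, had fold changes of 0.10 and -0.15 and did not pass. Rpl23a was the remaining member that fell, by 0.40 with the block. Rpl7l1, a low-level paralog of Rpl7, had 39.1 and 38.5 CPM in islet IGRP– and 51.5 and 45.7 in islet IGRP+. Rpl27 had 2821 and 2616 and then 3128 and 2753 CPM. Both were higher in islet IGRP+ within each round, with fold changes of 0.33 and 0.12 that did not pass with or without the block. Rpl41 was higher in islet IGRP+ within each round too, but its difference between rounds was far larger, and its log2 fold change was 0.25 ± 1.61 (SE).

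The comparison of spleen IGRP+ with islet IGRP+ cells sets the same specificity side by side in 2 tissues. Here 26.6% of all genes were called, but of the members only Rps27l, lower in the spleen, beside 13.7% of genes called lower. At an unadjusted p under 0.05, 1 member was higher and 2 were lower. The member median was -0.078, against 0.032 over all genes. DESeq2 called 1 member higher and 3 lower, beside 12.6% and 16.8% of all genes. With the replicate block 6 members rose and 12 fell, beside 27.1% and 28.0%, below the background in both directions. Of the 32 40S members tested 5 rose and 5 fell, and of the 48 60S members 1 rose and 7 fell. The sign of the median turned without islet IGRP+ Round 1 (0.28) and without spleen IGRP+ Round 2 (0.21). Those fits compare unequal rounds as well. Within the rounds the medians were -0.014 and 0.048, on CPM without the TMM normalization of the fits. Their signs are therefore not comparable with those of the fits.

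Rps27l had 264 and 183 CPM in islet IGRP+ and 101 and 102 in spleen IGRP+, with no overlap. Its log2 fold change was -1.25 ± 0.31 (SE), adjusted p = 0.0311, and with the block -1.21 ± 0.14 (SE), adjusted p = 7.43e-06. The call without the block was lost without islet IGRP+ Round 1 (-0.81, adjusted p = 0.0966), without spleen IGRP+ Round 1 (-1.36, 0.107) and without spleen IGRP+ Round 2 (-1.14, 0.154). Rps27 was opposite, at 3528 and 4114 CPM in islet IGRP+ and 9036 and 7127 in spleen IGRP+. Its fold change was 1.01 ± 0.37 (SE), adjusted p = 0.0922 without the block and 0.97 ± 0.17 (SE), adjusted p = 0.000353 with it. Rps29, another small zinc-binding protein of the 40S head, had 3352 and 3095 CPM in islet IGRP+ and 7688 and 4708 in spleen IGRP+ and rose with the block by 0.79 ± 0.17 (SE), adjusted p = 0.00156. Rps28 went from 2821 and 2558 to 5206 and 3486 CPM (0.56 with the block, adjusted p = 0.00711), and Rps21 from 3031 and 2264 to 4718 and 3485 CPM (0.53, adjusted p = 0.00442). For each of these the spleen libraries lay above the islet libraries. Rps24 rose with the block too, by 0.49 (adjusted p = 0.0116), from 5986 and 5723 to 9525 and 8074 CPM.

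Among 40S members, Rps26 (-0.54), Rps2 (-0.53) and Rps6 (-0.39) also fell in the spleen with the block. Rps6, the substrate of the S6 kinases, had 1851 and 1470.1 CPM in islet IGRP+ and 1365 and 1338 in spleen IGRP+, with an adjusted p of 0.0374 with the block and 0.333 without it. Rps3, at the mRNA entry of the small subunit, had 4424 and 3428 CPM in islet IGRP+ and 4584 and 3872 in spleen IGRP+, a fold change of 0.0074. Rps4x had a fold change of -0.077 and Rpsa, also known as the laminin receptor, of -0.36, from 8670.4 and 6316 to 6962 and 5587 CPM. None of the latter 3 passed either fit, nor did Rps27a, made as a fusion with ubiquitin (0.044). On the 60S side Rpl38, known for its part in Hox mRNA translation, went from 2441 and 2082 to 4284 and 2743 CPM and was the only one that rose with the block (0.50, adjusted p = 0.0135). The stalk gene Rplp0 fell with the block by 0.70 (adjusted p = 0.00163), from 8448 and 6309 to 5305 and 4365 CPM, whereas Rplp1 (0.042) and Rplp2 (0.11) did not pass. Rpl28 fell by 0.61 (adjusted p = 0.00234), from 3896 and 3247 to 2524 and 2469 CPM. Rpl7a went from 2067 and 1589.5 to 1355 and 1200.0 CPM and fell by 0.61 (adjusted p = 0.00311). Rpl41 (-0.69), Rpl15 (-0.41), Rpl7l1 (-0.41) and Rpl31 (-0.35) were the other 60S members that fell with the block.

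Markers of T-cell state differed between the groups as well. The 10 markers of naive or resting T cells summed to 2085 and 2990.3 CPM in islet IGRP–, 451 and 859 in islet IGRP+ and 2153 and 2937 in spleen IGRP+, led by Ccr7 in the islets and Klf2 in the spleen. By edgeR 5 of the 10 fell from islet IGRP– to islet IGRP+, and 7 rose from there to spleen IGRP+. The 12 markers of activated or effector T cells summed to 12056 and 10707 CPM in islet IGRP–, 22781 and 22536 in islet IGRP+ and 35748 and 33498 in spleen IGRP+, most of it Ccl5. By the test 1 of these 12 rose and 1 fell from islet IGRP– to islet IGRP+, and 4 rose and 6 fell from there to spleen IGRP+, with a median log2 fold change of -0.42, so the sum, led by Ccl5, does not stand for the list. The 5 markers of dividing cells summed to 361 and 169 CPM in islet IGRP–, 906 and 362 in islet IGRP+ and 64.7 and 56.7 in spleen IGRP+, led by Stmn1 in all but spleen IGRP+ Round 2, where Top2a led, and 4 of the 5 fell from islet IGRP+ to spleen IGRP+. Between these 2 groups 9 of 9 exocrine markers and the 1 endocrine marker tested also fell. The B-cell marker Cd79b rose by 2.13 on the log2 scale and 1 of the 7 CD8 T-cell markers rose, whereas 0 of the 3 myeloid markers tested passed. The part of these markers in the member differences was not tested.

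Clone size separated the member share further than the sorted group did. A clone was taken as the cells of a library that share the CDR3 nucleotide sequences of their only productive α and only productive β chain. Of the kept cells, 13667 (56.7%) had such a pair, in 5594 clones. In islet IGRP– cells the share was 36.8 and 30.3% in singlet clones, 28.4 and 22.5% in clones of 2 to 4 cells, 26.9 and 21.7% in clones of 5 to 19 and 27.5 and 20.8% in clones of 20 or more. In spleen IGRP+ cells it was 42.3 and 34.2% in singlets, 28.3 and 27.7% in clones of 2 to 4, 25.3 and 21.8% in clones of 5 to 19 and 26.7 and 21.8% in clones of 20 or more. The step lay between singlets and clones of 2 to 4 cells in these libraries, apart from spleen IGRP+ Round 2, where it was spread over the first 3 classes. Clones of 2 to 4 cells had only 36 and 56 cells in spleen IGRP+. In islet IGRP+, where only 12 and 14 cells were singlets, the share was 32.9 and 27.7% in singlets and 29.2 and 22.0% in clones of 2 or more.

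Clones of 2 or more cells minus singlets gave -9.30 and -8.80 percentage points in islet IGRP– and -15.6 and -12.1 in spleen IGRP+. These differences exceed their SD between rounds, 0.358 and 2.47 points (n = 2 libraries each), and the gap between rounds within a class. Both subunits took part, with -4.76 and -4.75 points for 40S and -4.54 and -4.05 for 60S members in islet IGRP–, and in spleen IGRP+ with -7.72 and -6.54 for 40S and -7.91 and -5.60 for 60S members. With each clone given the same weight the differences were -9.04 and -8.04 points in islet IGRP– and -14.2 and -8.99 in spleen IGRP+. Clones of 20 or more cells numbered 11 and 25 in islet IGRP–, 6 and 16 in islet IGRP+ and 16 and 17 in spleen IGRP+, and each of them lay below the singlet share of its own library. The largest clone, 323 cells of spleen IGRP+ in Round 2, had a share of 22.0%.

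**Figure D3:**
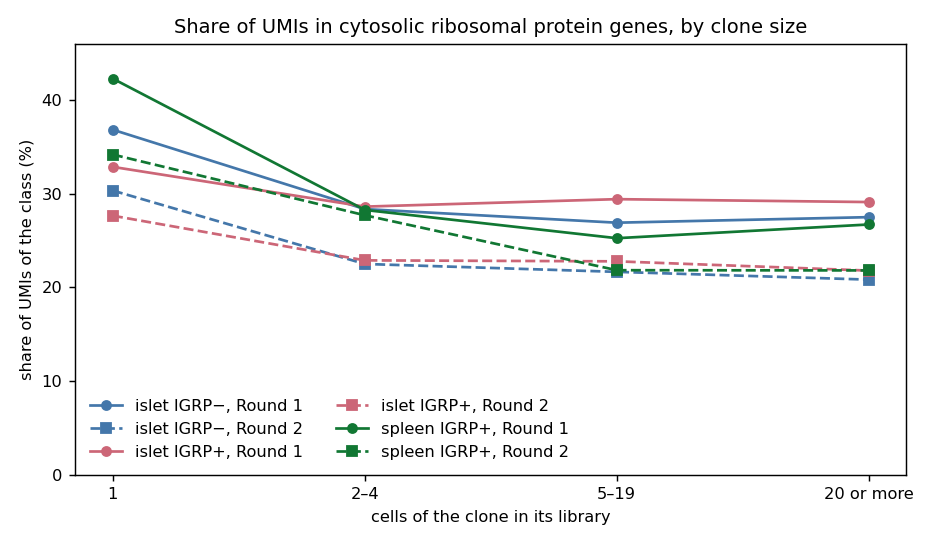
Points give the percent of UMIs in members over all cells of a clone size class in each of the 6 libraries, joined by lines, solid for Round 1 and dashed for Round 2. Singlets lie highest in each library, at 27.7 to 42.3%, and clones of 20 or more cells lie at 20.8 to 29.1%.

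Markers and depth differed between the clone classes. The summed naive or resting markers were 3353 and 4691 CPM in islet IGRP– singlets and 733 and 1131 in larger clones, and 10 of 10 fell by the test. In spleen IGRP+, the group described as sorted for CD44, they were 3241 and 4393 CPM in singlets and 1765 and 2645 in larger clones, and 8 of 10 fell. Of the 12 effector markers 10 rose in larger clones of islet IGRP– and 11 in those of spleen IGRP+, and of the 5 markers of dividing cells 5 and 2 rose. Exocrine markers, at 115 and 563 CPM in islet IGRP– singlets and 83.2 and 307 in larger clones, fell as well (9 of 9). Myeloid markers, mostly Cst3, summed to 106 and 132 CPM in islet IGRP– singlets and 184 and 226 in larger clones, where 3 of the 3 tested rose, and to 131 and 169.8 and then 217 and 212 CPM in spleen IGRP+, where 1 of 3 rose. The B-cell marker Cd79b fell in both groups, by 1.18 in islet IGRP– and by 2.13 in spleen IGRP+, where the B-cell markers summed to 21.1 and 28.8 CPM in singlets and 6.80 and 6.47 in larger clones. Of the 7 CD8 T-cell markers 6 rose in islet IGRP– and 1 in spleen IGRP+, and the 1 endocrine marker tested rose in islet IGRP–. The median depth was 3811 and 3731 UMIs per singlet cell and 4595 and 4297.5 per cell of larger clones in islet IGRP–, but 3856.5 and 4138 against 2612 and 2838.5 in spleen IGRP+. Among cells with 2000 to 4000 UMIs the difference was -11.8 and -9.70 points in islet IGRP– and -13.4 and -7.82 in spleen IGRP+. The difference was thus present within 1 range of depth, and the part of the effector, CD8, myeloid, B-cell, exocrine and endocrine markers in it was not tested.

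Gene by gene, nearly the whole set was lower in larger clones. Sums per library and clone class were tested with the library as a block, in islet IGRP– and spleen IGRP+ only, since islet IGRP+ had too few singlet cells. In islet IGRP–, 77 of 80 members fell, beside 21.3% of the 10841 genes tested, and 1, Rps27l, rose, beside 24.5%. The median log2 fold change was -0.59, against -0.0046 over all genes, with -0.67 for 40S and -0.58 for 60S members. Rpl41 (-0.15, adjusted p = 0.0669) and Rpl7l1 (-0.059, adjusted p = 0.647) did not pass. In spleen IGRP+, 79 of 80 members fell, beside 8.43% of all genes (17.0% in either direction), with a median of -0.87 against 0.025. The one that did not pass was Rps27l, and all 77 that fell in islet IGRP– also fell in spleen IGRP+. Without the library term no member passed in islet IGRP– (26 lower at an unadjusted p under 0.05; 8.47% of genes called), and in spleen IGRP+ 2 fell, Rps20 and Rpl28, beside 2.02% of genes, while the medians were -0.59 and -0.89. DESeq2 with the library term called 1 member higher and 75 lower in islet IGRP–, beside 11.1% and 8.57% of genes, and 78 lower in spleen IGRP+, beside 6.19%. The fit has 2 residual degrees of freedom, and both classes of a library come from the same pool of mice.

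In islet IGRP– the lowest fold changes were those of Rps27, Rps19, Rps24, Rps28 and Rplp1, and in spleen IGRP+ those of Rps20, Rps19, Rpl28, Rpl36a and Rpl35. Rps19 had 5744 and 5049.6 CPM in islet IGRP– singlets and 3417 and 2851 in larger clones, and in spleen IGRP+ 7430.2 and 5723 in singlets and 3488 and 2883 in larger clones. Its log2 fold change was -0.94 ± 0.064 (SE), adjusted p = 2.67e-14, in islet IGRP– and -1.28 ± 0.066 (SE), adjusted p = 7.68e-17, in spleen IGRP+. The classes did not overlap in either group. Rps27 went from 8244 and 5787 to 4769 and 3276 CPM in islet IGRP– (-0.96 ± 0.062 (SE), adjusted p = 5.48e-15) and from 11364 and 9629 to 8139 and 6814 in spleen IGRP+ (-0.73 ± 0.062 (SE), adjusted p = 1.81e-11). Rps27l had 130.2 and 105 CPM in islet IGRP– singlets and 201 and 163 in larger clones and rose by 0.48 ± 0.059 (SE), adjusted p = 3.41e-08. In spleen IGRP+ it had 81.3 and 91.0 CPM in singlets and 101 and 104 in larger clones, with a fold change of 0.014 ± 0.13 that did not pass. The paralogs thus moved in opposite directions in islet IGRP– cells. Rps20, a protein of the 40S head, went from 7775 and 7379.6 to 5248 and 4612 CPM in islet IGRP– (-0.78) and from 9045 and 8258 to 4029 and 3735 in spleen IGRP+ (-1.40, adjusted p = 3.11e-18). Rps24 went from 10505 and 9684 to 6341 and 5431 CPM (-0.94) and, in spleen IGRP+, from 13472 and 12096 to 8201 and 7481 (-0.95). Rps28 went from 4579 and 2749.8 to 2800.1 and 1602 CPM in islet IGRP– (-0.90) and from 7863 and 5533 to 4338 and 3209 in spleen IGRP+ (-1.07).

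The other 40S members named for a role fell too. Rps6 fell by 0.46 on the log2 scale in islet IGRP–, from 2085 and 2281 to 1750.2 and 1793 CPM, and by 0.96 in spleen IGRP+, from 2033 and 1971 to 1198 and 1249. Rps3 fell by 0.67 and by 0.91, respectively, and Rps4x, encoded on the X chromosome, fell by 0.70 and by 1.05. Rps14 fell by 0.69 and by 0.77, with 4787 and 5189 CPM in islet IGRP– singlets and 3339.8 and 3530.2 in larger clones. Rps27a and Rps29 fell by 0.70 and 0.77 in islet IGRP– and by 0.92 and 0.86 in spleen IGRP+. Rpsa fell by 0.42 and by 0.89. The adjusted p values of these 7 members lay between 5.14e-15 and 9.02e-07.

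On the 60S side the stalk genes all fell. Rplp1 went from 8043 and 7059.9 to 5096 and 4212 CPM in islet IGRP– (-0.86) and from 7571 and 5668 to 4422 and 3725 in spleen IGRP+ (-0.93). Rplp0, the stalk base, went from 7610.3 and 7048 to 6869 and 6034 CPM in islet IGRP– (-0.34) and from 8069.6 and 7022 to 4619.7 and 4045 in spleen IGRP+ (-1.04), a difference that passed its own test (given below). Rplp2 fell by 0.58 in islet IGRP– and by 0.75 in spleen IGRP+. Rpl28 went from 4361 and 4087 to 3812 and 3464 CPM in islet IGRP– (-0.37) and from 4125 and 4082 to 2065 and 2241 in spleen IGRP+ (-1.17). Rpl35, which sits near the exit of the nascent chain, went from 3767 and 3576 to 2862 and 2486 CPM in islet IGRP– (-0.62) and from 4599 and 4091 to 2475 and 2377 in spleen IGRP+ (-1.08). Rpl36a, on the X chromosome, went from 2447 and 1867 to 1698 and 1198 CPM in islet IGRP– (-0.74) and from 2758 and 2296 to 1439 and 1264 in spleen IGRP+ (-1.14). Of the 5S particle, Rpl5 fell by 0.70 and 1.00 in the 2 groups and Rpl11 fell by 0.47 and 0.75. Rpl22, needed for αβ T-cell development, and its paralog Rpl22l1 both fell. Rpl22 went from 2531 and 2184 to 1986 and 1633 CPM in islet IGRP– (-0.54) and from 2879.9 and 2619 to 1940.3 and 1783 in spleen IGRP+ (-0.81), and Rpl22l1 from 1468 and 1267 to 1055 and 881 CPM in islet IGRP– (-0.66) and from 1499 and 1289 to 979 and 884 in spleen IGRP+ (-0.82). Unlike Rps27 and Rps27l, this pair of paralogs moved the same way. Rpl10, Rpl39 and Rpl38 fell by 0.39, 0.59 and 0.60 in islet IGRP– and by 0.95, 0.88 and 0.64 in spleen IGRP+. Rpl13a, the member with the lowest fold change between the islet groups, fell less than the median member in both groups (-0.46 in islet IGRP– and -0.44 in spleen IGRP+). Rpl7l1 had 47.2 and 47.0 CPM in spleen IGRP+ singlets and 35.6 and 39.8 in larger clones and just passed there (adjusted p = 0.0318).

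**Figure D4:**
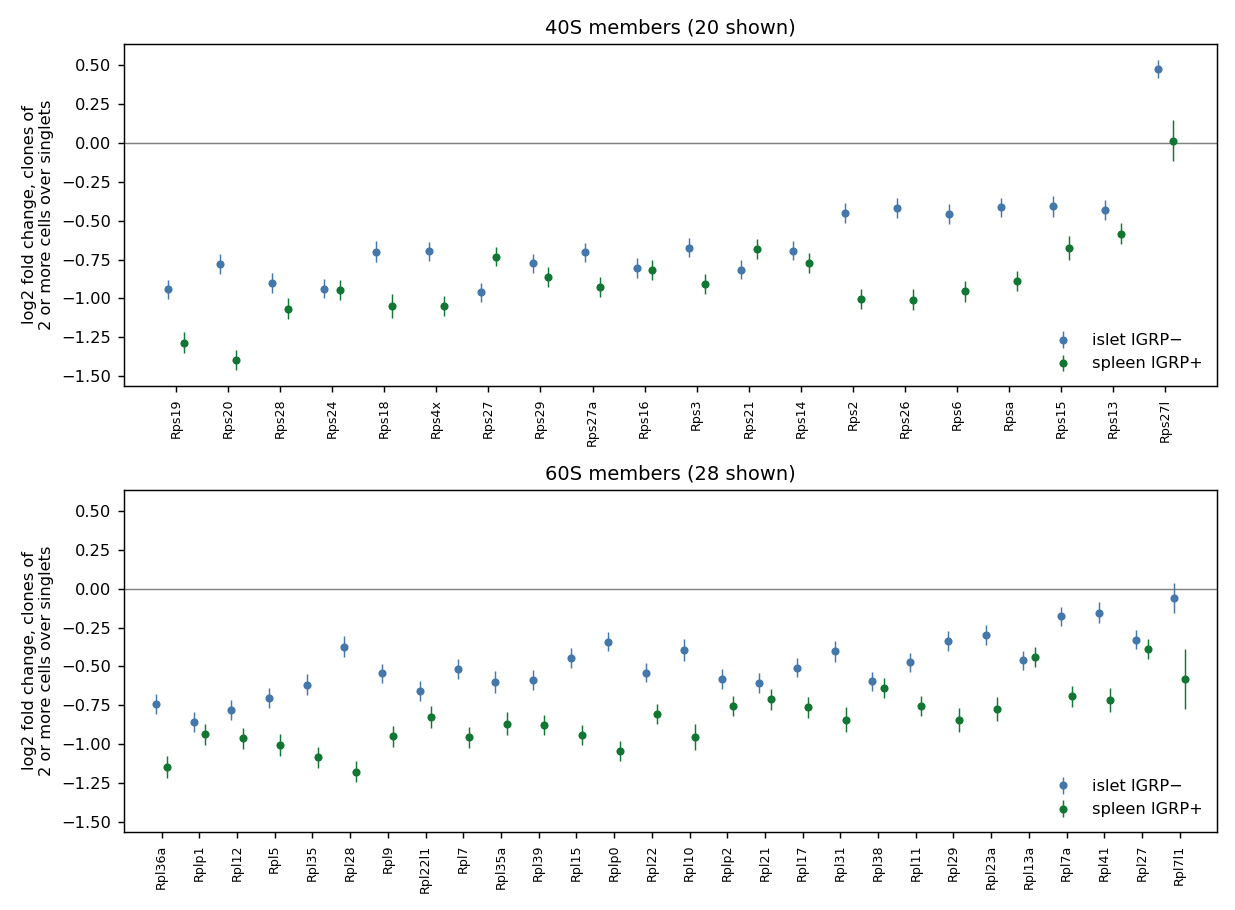
Points give the log2 fold change of clones of 2 or more cells over singlets for the tested members that the text names in islet IGRP– and spleen IGRP+, with bars of 1 SE, 40S members above and 60S members below, ordered by the mean of both groups. All points lie below 0 except Rps27l, at 0.48 in islet IGRP– and 0.014 in spleen IGRP+, where the latter turns to -0.010 with DESeq2 size factors.

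The difference between the class effects, spleen IGRP+ minus islet IGRP–, was tested as an interaction. It was below 0 for 77 of 80 members and passed for 39, 13 of the 40S and 26 of the 60S subunit, all more negative in spleen IGRP+, beside 4.71% of all genes (9.15% in either direction). The median was -0.28 against 0.036 over all genes. Rpl28 (-0.80 ± 0.093 (SE), adjusted p = 1.23e-07), Rplp0 (-0.70 ± 0.088 (SE), adjusted p = 5.86e-07) and Rps20 (-0.62 ± 0.089 (SE), adjusted p = 6.04e-06) had the largest differences. Rps27 (0.23, adjusted p = 0.101) and Rps24 (-0.0099, adjusted p = 0.969) did not pass. The count rests on few libraries. It was 9 without islet IGRP– Round 1 (beside 3.10% of all genes), 7 without islet IGRP– Round 2 (2.40%), 12 lower and 1 higher without spleen IGRP+ Round 1 (1.25% and 1.83%) and 43 without spleen IGRP+ Round 2 (2.35%), and without the library term it was 0 by edgeR (1 at an unadjusted p under 0.05; 0.129% of genes called). DESeq2 with the library term called 47 lower, beside 2.90%. The interaction was not tested at matched depth. Among cells with 2000 to 4000 UMIs the class differences in member share had means of -10.7 points in islet IGRP– and -10.6 in spleen IGRP+, against -9.05 and -13.9 over all depths, and in Round 2 the islet IGRP– one was then the larger.

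The sorted groups held the clone classes in unequal numbers, with singlets making up 1389 of 2992 paired cells in islet IGRP– Round 1 but 12 of 673 in islet IGRP+ Round 1. The groups were therefore also compared over cells of clones of 2 or more alone, a choice made after seeing the data. There the member share was 27.5 and 21.5% in islet IGRP–, 29.2 and 22.0% in islet IGRP+ and 26.7 and 22.1% in spleen IGRP+. Islet IGRP+ minus islet IGRP– thus turned to 1.64 and 0.405 points, and spleen IGRP+ minus islet IGRP+ to -2.51 and 0.107. The member median of islet IGRP+ against islet IGRP– turned to 0.16. No member passed by edgeR (0 at an unadjusted p under 0.05; 0.0189% of 10556 genes called), and with the replicate block 1 did, Rpl13a, which fell by 0.58 (adjusted p = 0.0387; 4.22% of genes called). The fall of Rpl13a in islet IGRP+ was the only one of the 11 seen with all cells that also passed within larger clones, where the other 10 had fold changes from -0.37 to 0.039 with the block. Rps27l, which had risen with all cells, did not pass there, at 0.49 ± 0.14 (SE), adjusted p = 0.0697. Rps27, with 4769 and 3276 CPM in larger clones of islet IGRP– and 3302 and 4034 in those of islet IGRP+, had a fold change of -0.021 there. Between spleen IGRP+ and islet IGRP+, Rps27l again was the only member that passed without the block, lower in the spleen, beside 12.2% of genes, and with the block 5 rose and 33 fell, beside 23.3% and 26.3%. The 5 that rose were Rps27 (0.88), Rps29 (0.64), Rps21 (0.43), Rpl38 (0.40) and Rps24 (0.33), and the lowest values were those of Rps27l (-1.35), Rplp0 (-0.93) and Rpl28 (-0.88).

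Clones found in both tissues allowed the same receptor to be followed. In Round 1, 31 clones were shared by islet IGRP+ and spleen IGRP+, with 632 islet and 1375 spleen cells, and in Round 2, 35 clones with 1134 and 1445. Their member share was 29.1% in islets and 26.7% in spleen in Round 1, and 22.0% and 21.8% in Round 2. Of the clones with at least 5 cells in each tissue, 13 of 19 in Round 1 and 14 of 25 in Round 2 had the higher share in islets. The islet cells of these clones had more UMIs, with medians of 4715.5 and 4627 against 2620.0 and 2836, and within islet IGRP+ libraries cells with 500 to 2000 UMIs had a share of 25.6 and 14.0% against 29.8 and 22.4% in cells with 4000 to 8000. The part of depth in the difference between tissues was not tested.

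Genes related to the ribosome by function were counted beside the members. Rack1, a scaffold protein on the 40S head outside the naming rule, fell in larger clones of spleen IGRP+ by 0.82 (adjusted p = 1.74e-11) and of islet IGRP– by 0.52. Fau, another ribosomal gene outside it, had 6954 and 5928 CPM in islet IGRP–. In larger clones it fell by 0.48 in islet IGRP– and by 0.54 in spleen IGRP+. Of 19 translation factors and other mRNAs of the TOP class, 13 fell in islet IGRP– (median -0.23) and all 19 fell in spleen IGRP+ (-0.60), beside 21.3% and 8.43% of all genes. Eef1b2, an exchange factor of elongation factor 1A, had the lowest fold change in both, -0.74 ± 0.065 (SE), adjusted p = 1.3e-11, and -1.15 ± 0.070 (SE), adjusted p = 5.39e-15. Eef1a1, Tpt1 and Eef2, the most abundant of the list, fell by 0.43, 0.64 and 0.22 in islet IGRP–. Between spleen IGRP+ and islet IGRP+, 1 of the 19 rose, Eif4a2 (0.92 ± 0.17 (SE), adjusted p = 0.0152), and 1 fell, Hnrnpa1 (-1.13 ± 0.22 (SE), adjusted p = 0.0164), beside 26.6% of all genes in either direction. Both moved that way with the block as well, where 7 of the 19 fell beside 28.0%. Between the islet groups 0 of the 19 passed by edgeR (1 lower at an unadjusted p under 0.05; 1 lower by DESeq2), and with the block 2 fell, beside 16.1%, Eif4a2 lowest (-0.70).

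Genes for making ribosomes moved less evenly. Of 27 ribosome biogenesis genes, 2 rose and 15 fell in larger clones of islet IGRP– (median -0.30), beside 24.5% and 21.3% of all genes, and 8 fell in spleen IGRP+ (-0.44), beside 8.43%, with Nop16 lowest there (-1.35 ± 0.23 (SE), adjusted p = 2.94e-05). Myc, the transcription factor that drives ribosome production, had 29.7 and 35.8 CPM in islet IGRP–, 15.5 and 25.2 in islet IGRP+ and 67.3 and 75.7 in spleen IGRP+. It fell in larger clones of islet IGRP– (-0.75 ± 0.11 (SE), adjusted p = 4.87e-07) and of spleen IGRP+ (-1.15 ± 0.15 (SE), adjusted p = 2.19e-07). Myc rose from islet IGRP+ to spleen IGRP+ (1.73 ± 0.19 (SE), adjusted p = 0.00422). Nop58, a core protein of box C/D snoRNPs, fell there (-0.91 ± 0.16 (SE), adjusted p = 0.0115). Ubtf, a factor of RNA polymerase I, rose in larger clones of islet IGRP– (0.32 ± 0.073 (SE), adjusted p = 0.000551). Of the abundant nucleolar proteins Ncl and Fbl, Fbl fell in larger clones of islet IGRP– (-0.33) and spleen IGRP+ (-0.69). Ncl passed in neither (-0.087 and -0.13). Of 78 mitochondrial ribosomal proteins, 26 rose and 8 fell in larger clones of islet IGRP– (median 0.10), beside the same 24.5% and 21.3% of all genes, and 4 rose and 7 fell in spleen IGRP+ (-0.11), beside 8.43% lower and 17.0% in either direction. Mrpl33 was among the 3 most abundant of them. Mrps6 had 108 and 211 CPM in islet IGRP–, 189.8 and 283 in islet IGRP+ and 46.5 and 85.3 in spleen IGRP+. It rose in larger clones of islet IGRP– (0.90 ± 0.060 (SE), adjusted p = 1.45e-14) and fell from islet IGRP+ to spleen IGRP+ (-1.95 ± 0.35 (SE), adjusted p = 0.0135), where 9 of the 78 fell beside 13.7% of all genes. With the block 30 fell and 4 rose there, beside 28.0% and 27.1%. From islet IGRP– to islet IGRP+, 0 of the 78 passed by edgeR without the block (4 higher at an unadjusted p under 0.05; 1 higher by DESeq2) and 30 rose with it, beside 14.4% of all genes, with a median of 0.26 against -0.016 over all genes.

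Members are scattered over the genome, and the genes that the comparisons turn on lie apart. On GRCm38, Rps27 (ENSMUSG00000090733) is at chr3:90212522-90213651, minus strand, and Rps27l (ENSMUSG00000036781) at chr9:66946086-66949516, plus strand. Rps19 is at chr7:24884371-24889806, plus strand, Rps20 at chr4:3831334-3835665, minus strand, Rpl28 at chr7:4792874-4795066, plus strand, Rplp0 at chr5:115559467-115563727, plus strand and Rpl13a at chr7:45125558-45128761, minus strand. The start regions of 5 members are shown because ribosomal protein mRNAs as a group are known as TOP mRNAs. They also allow Rps27 and Rps27l, which moved in opposite directions, to be set side by side. Each window holds 30 bases, 10 before and 20 from the RefSeq transcription start on, 5′ to 3′ on the transcribed strand, from RefSeq GRCm38.p6, with the promoter and first exon meeting inside it. Capitals mark runs that match CNNNN in which each N is C or T, extended over all pyrimidines that follow. In the Rps27l window the base at the RefSeq start is g, and the longer marked run lies before the start. The windows are chr3:90213629-90213658 (minus strand) for Rps27, chr9:66946076-66946105 (plus) for Rps27l, chr4:86857348-86857377 (minus) for Rps6, chr11:114668570-114668599 (plus) for Rpl38 and chr7:141447641-141447670 (plus) for Rplp2.
Rps27: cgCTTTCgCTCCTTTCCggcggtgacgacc
Rps27l: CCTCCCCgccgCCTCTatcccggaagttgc
Rps6: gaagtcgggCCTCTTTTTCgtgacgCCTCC
Rpl38: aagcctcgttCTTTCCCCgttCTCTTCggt
Rplp2: cagcgtCTTCCTTTCgccgccggacgccgc
Of the same 30 bases in all 32851 entries, 35.8% held the motif on the transcribed strand and 40.7% on the other strand. An entry was found for 63 of the 83 members (75.9%), which is under 80%, so a share over the members would be void and is not given. A match of letters describes the window and says nothing of its use.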

How the data were processed

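UMI counts per gene and cell were made by the authors with Cell Ranger (version 5.0.1 per the file headers) from 10x 5′ libraries aligned to mm10 and were deposited without normalization or a filter on genes. T-cell receptor contigs were deposited by the authors with UMI counts per chain, and the CDR3 sequences and the productive state of each chain were taken from them. Groups came from the labels. The 83 members and the related and marker lists were chosen with earlier results of these data known.

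Counts of kept cells were summed per library and tested with edgeR 4.0.16 (limma 3.58.1, R 4.3.3) by its quasi-likelihood F-test, two-sided, with TMM normalization, filterByExpr and Benjamini-Hochberg adjustment over all genes tested. All 6 libraries entered 1 fit without a term for the round, with 3 residual degrees of freedom. Clone classes were tested over 8 sums of at least 50 cells with the library as a block. Rounds pair the libraries because the 3 sorted groups of a round came from the same mice, and deviations from the group means correlated between same-round libraries (r = 0.764, 0.762 and 0.707 over 11277 genes, which are not independent replicates), so results with the round as a replicate block stand beside those without it. DESeq2 1.42.0 was run as an alternative. An adjusted p under 0.05 was taken as passing. The steps were tested on simulated counts with 200 genes changed by 2 on the log2 scale. Of these, 71% were recovered in each comparison of groups. Between clone classes 96% were recovered in islet IGRP– and 72.5% in spleen IGRP+. Smaller changes, such as those of most members, were not simulated. SE was taken as the absolute fold change over the root of F.

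Named members are, per comparison and direction, the 5 with the largest fold change among those whose mean reached 20 CPM in whichever group was higher and whose sign was shared by both rounds, and members named for a role: Rps6, Rps19, Rps3, Rps14, Rps4x, Rps27, Rps27l, Rps27a, Rps29, Rpsa, Rplp0, Rplp1, Rplp2, Rpl5, Rpl11, Rpl22, Rpl22l1, Rpl10, Rpl13a, Rpl38, Rpl39, Rpl3l, Rpl7l1, Rpl10l and Rpl39l (Rps4l was not analysed here). Of related lists the 3 most abundant genes and the largest change in each direction could be named. Others were named after their values were seen. Doublets were not called, and as an alternative cells carrying over 1 productive β chain were dropped. Other alternatives were normalization, filters, depth, clone definitions and leaving out libraries. Shares and intervals were computed with Python 3.11.15, numpy 2.4.6, pandas 2.3.3 and scipy 1.17.1, and figures with matplotlib 3.10.9. Positions are from GENCODE on GRCm38. Spleen tetramer-negative cells were not analysed here. Some genes, and a repeat of the clone class comparison over part of the cells, are not reported here.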

Additional observations from a re-analysis of the deposited data

Results flagged for a closer look

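The log2 difference between clones of 2 or more cells and singlets was not the same in the 2 groups where it could be tested. By the interaction term of edgeR's quasi-likelihood fit, spleen IGRP+ minus islet IGRP–, 39 of 80 members passed, each with the more negative value in spleen IGRP+. Of all genes 4.71% passed with the more negative value there, and 9.15% in either direction. Among named 40S members the difference was -0.34 for Rps19, -0.62 for Rps20, -0.59 for Rps26, -0.35 for Rps4x, -0.50 for Rps6 and -0.47 for Rpsa. Rps27l, which rose in larger clones of islet IGRP–, had a difference of -0.46. Among named 60S members it was -0.70 for Rplp0, -0.80 for Rpl28, -0.51 for Rpl7a, -0.47 for Rpl35 and -0.41 for Rpl36a. Rpl5 and Rpl11, which bind 5S rRNA, had -0.30 and -0.28, and Rpl39 had -0.29. Rpl10 and Rpl41, both over 2-fold different between rounds, had -0.56 and -0.56. The count was 9 without islet IGRP– Round 1 (beside 3.10% of all genes), 7 without islet IGRP– Round 2 (2.40%), 12 with 1 higher without spleen IGRP+ Round 1 (1.25% and 1.83%), 43 without spleen IGRP+ Round 2 (2.35%) and 0 by edgeR without the library term (1 at an unadjusted p under 0.05, and 47 by DESeq2 with that term). Of all genes 0.129% passed by edgeR without the library term, and 2.90% were lower by DESeq2 with it. Singlet cells were fewer in spleen IGRP+ than in islet IGRP– (252 and 162 against 1389 and 2959 cells in Rounds 1 and 2), and the part of this in the difference was not tested. Singlets were also deeper than larger clones in spleen IGRP+ and shallower in islet IGRP–. At 2000 to 4000 UMIs per cell the class difference in member share was -11.8 and -9.70 points in islet IGRP– and -13.4 and -7.82 in spleen IGRP+ (means -10.7 and -10.6), so there the spleen one was the larger in Round 1 only. The interaction was not tested within that range.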

How the results depend on the processing

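With the round as a replicate block, 12 members passed between the islet groups and 18 between spleen IGRP+ and islet IGRP+, against 0 and 1 without it. Of all genes 14.4% rose and 16.1% fell between the islet groups with the block, and 27.1% and 28.0% between tissues. Without it 1.19% and 26.6% passed. The member counts were 12 and 18 with the block and TMM factors computed without the members, beside 3462 and 6223 of 11277 genes. With the block and only cells of clones of 2 or more they were 1 and 38, with medians of 0.14 and -0.23. There 4.22% of genes passed between the islet groups, and between tissues 23.3% rose and 26.3% fell. Without the block the medians over those cells were 0.16 and -0.23, and the mean share differences turned to 1.02 and -1.20 points. These settings over larger clones, the block with those TMM factors, the shares without members that differ over 2-fold between rounds, and the single libraries left out of the clone class fit were chosen after seeing the data. Without the library block, 0 members passed between clone classes in islet IGRP– and 2 in spleen IGRP+, both lower. Of all genes 8.47% passed in islet IGRP– and 2.02% fell in spleen IGRP+. Between spleen IGRP+ and islet IGRP+, DESeq2 called 4 members, beside 3322 of 11277 genes. There edgeR without a filter on low counts called 2, beside 3564 of 18694 genes.

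Islet IGRP+ minus islet IGRP– was -4.69 points as a mean over cells and -6.61 among cells with 2000 to 4000 UMIs. The clone class difference in islet IGRP– was -8.54 points with equal weight per clone, -10.7 at 2000 to 4000 UMIs and -8.55 without members that differ over 2-fold between rounds. In spleen IGRP+ it was -10.6 at 2000 to 4000 UMIs.

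With single libraries left out, the member median ran from -0.48 to 0.10 between the islet groups, from -0.37 to 0.28 between spleen IGRP+ and islet IGRP+ (0 to 1 members passed) and from -0.95 to -0.74 between clone classes in spleen IGRP+. A lone library is then assumed to vary like the other groups, and the sorted groups hold unequal rounds. Between the islet groups Rpl27 ran from -0.10 to 0.32, Rpl41 from -2.30 to 2.86 and Rps26 from -0.16 to 0.43, and in the spleen against the islets Rpl41 from -3.33 to 1.96. Other named members moved widely without a change of sign. Between the islet groups Rps27 ran from -0.88 to -0.20, Rps27l from 0.22 to 0.98, Rplp1 from -1.05 to -0.12 and Rpl13a from -1.25 to -0.40. In the spleen against the islets Rpl38 ran from 0.054 to 0.94, Rps28 from 0.15 to 0.98 and Rps29 from 0.33 to 1.28. Rps27l in larger clones of spleen IGRP+ was -0.010 with DESeq2 size factors, -0.011 by DESeq2 and -0.0039 with clones sized over a round. The causes of these changes were not tested. Stability was counted over pairs of a named member and a setting. Direction and side of the threshold were kept in 152 of 170 pairs between the islet groups and 136 of 170 between tissues. Between clone classes they were kept in 240 of 266 pairs in islet IGRP– and 258 of 288 in spleen IGRP+. Without the block no member passed between the islet groups and only Rps27l between tissues, so keeping their side there mostly meant not passing. Fits without a whole round gave no p-values, and their pairs were left out for members that had passed. Counts of members called between clone classes without a whole round were not run because those fits have no residual degrees of freedom.

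There were 2 pools of mice per group. Without a block, p-values measure the spread between pools, estimated over the groups together. With the library or the round as a block, differences between libraries or rounds are taken out. Those p-values measure only the spread that remains. Rounds differ in sequencing, and tissue cannot be told apart from preparation. Shares are relative, so fewer member UMIs and more UMIs of other genes cannot be told apart, and RNA amounts per cell were not measured. Members with near-identical copies are uncertain. Singlets in spleen IGRP+ were few, and clone size is that among sequenced cells, not in the mouse.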
